A study of Drosophila melanogaster with 18 samples.

Results

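The odor-only heads were 6 of 18 single female Drosophila melanogaster heads sequenced one by one, which made it possible to ask how far flies given the same treatment differed from each other and which genes differed most. Genes were taken into the description where the mean RPKM (reads per kilobase of gene per 1000000 mapped reads) over the 6 odor heads was at least 0.5, which held for 11006 of the 17559 genes in the table. At that edge, CG32182 with a mean of 0.500127 RPKM was kept, with an SD of 0.41, and CG14054 with 0.499897 RPKM was left out, with an SD of 0.26. The spread of a gene is given throughout as the standard deviation (SD) of log2(RPKM + 0.5) over the 6 heads, so that an SD of 1 means heads typically 1 doubling away from their mean.

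The study trained flies to associate an odor with a sugar and sequenced mRNA from heads to find transcripts that follow training. Odor-only flies had been food deprived and received octanol without sugar; in the labels they are naive. The sorbose heads (6) came from starved flies that met octanol together with sorbose, which tastes sweet but cannot be used as food, and the sucrose heads (6) from starved flies that met it together with sucrose, a nutritious sugar, both groups 4 h after training. The hour at which odor heads were taken, the strain and the ages of the flies are not given in the sources used here. All flies were kept at a constant temperature with alternating light and dark. After freezing, heads were shaken off by vortexing or cut off on dry ice, and the sources do not record which was done for which head. The labels do not say whether the heads of a group came from 1 training session or several, so p-values measure only the spread between these heads.

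A fly head holds the brain and the compound eyes, but also a pericerebral fat body, cuticle, muscle of the proboscis and antennae, and circulating hemocytes. The fat body combines the work of liver and adipose tissue: it stores and mobilises lipid and glycogen, secretes yolk and serum proteins, and releases antimicrobial peptides through the Toll and Imd pathways. Its transcripts follow feeding through insulin, TOR and the transcription factor FOXO, which switches on genes such as Thor during starvation. Since each sample was a whole head, fewer cells of a type and less RNA per cell cannot be told apart.

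Sequencing was deep for every odor head. The depth that RPKM steps imply in units of 1000000 reads was 58.4 to 77.2 per odor head, against 45.8 to 65.6 per sorbose or sucrose head, and about 97.7% of values in each odor head came out as whole reads within 0.05. The SD that counting alone would give was known for 10784 genes, with a median of 0.037. Of these genes, 76.8% had an SD over 2 times their counting SD. No pair of odor heads was alike within counting noise: chi-square per degree of freedom was 69.1 between heads 1 and 6, the closest pair, and up to 598 between heads 5 and 6. Genes of the eye and of neurons were abundant, with summed RPKM of 19619 to 25370 over 29 phototransduction genes and 1915 to 2244 over 22 synaptic and neuronal genes. Of 31 gut digestive proteases and 10 male-specific genes none reached the mean of 0.5 RPKM, and 12 of the proteases and 2 of the male-specific genes were at 0 in all 6 heads. The summed level of 16 eggshell and germline genes was 2.77 to 3.64 RPKM, and that of 3 flight muscle genes was 4.22 to 5.97 RPKM. The libraries carried no strand, so reads of overlapping genes cannot be told apart; among the genes described here, exons of AttC, DptB, tobi, asRNA:CR45485, Yp1, Lsp2, fit, Vago, Sting, Pepck1, SREBP, Lpin, Mcad, Gnmt, CG1494, brwl, Pcyt1, bw, ninaB, inaD, crq, Hsp22, Hsp70Ab, Tbp, 28SrRNA:CR45837, Ide, CG11523 and Nct, and possibly others, overlap those of another gene.

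Most genes differed little between odor heads and a small set differed widely. The median SD over all 11006 genes was 0.15, the 10th percentile was 0.069 and the 90th was 0.49. An SD of at least 1 was reached by 266 genes and an SD of at least 2 by 25 genes. By construction 10% of genes form the top 10% by SD, which began at an SD of 0.49 and held 1101 genes, and the lists below are read against that share. Low and high expression both carried more spread, with a median SD of 0.21 in the lowest 10% of genes by mean level and 0.21 in the highest 10%.

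**Figure D1:**
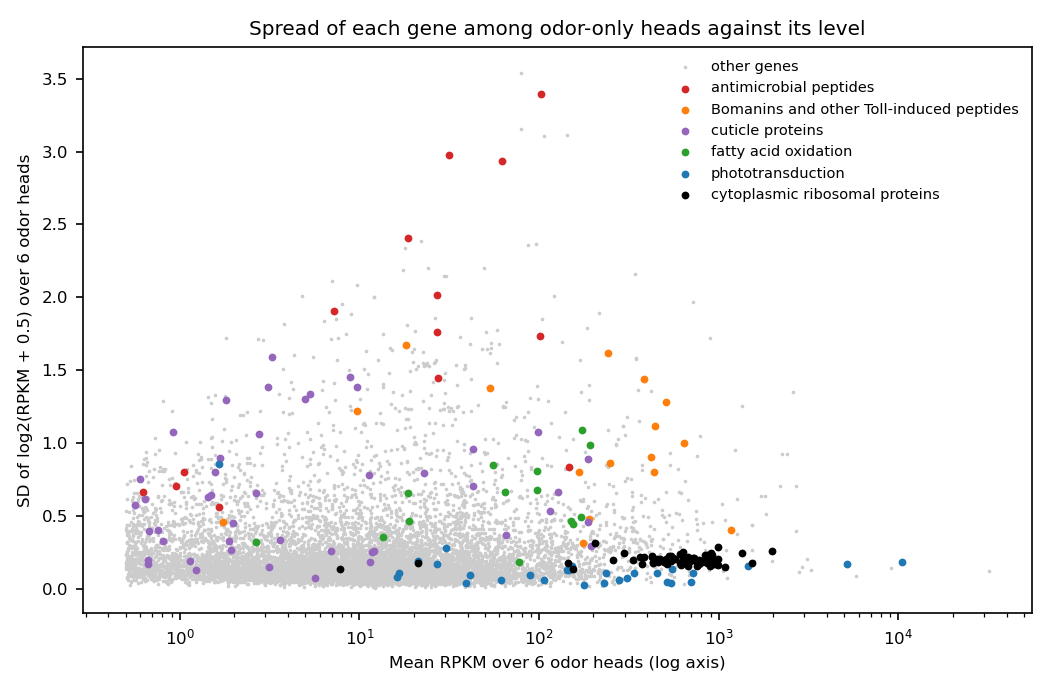
SD of log2(RPKM + 0.5) over 6 odor heads (vertical axis) against mean RPKM over the same heads (horizontal log axis), 1 point per gene, with 6 gene lists in color. Antimicrobial peptides and Bomanins lie above most genes of their level, with list medians of 1.75 and 0.95, while phototransduction genes lie near the floor with a list median of 0.11.

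The most variable gene with a symbol was CG14949, an uncharacterized protein-coding gene on chromosome 3L. Its RPKM in odor heads 1 to 6 was 256, 4.27, 34.6, 0.541, 0.642 and 183. Heads 1 and 6 were far above the rest, heads 4 and 5 were below 1 RPKM and heads 3 and 2 lay between, and its SD was 3.54 in odor heads, 0.28 in sorbose heads and 0.59 in sucrose heads. In the trained groups CG14949 was low throughout, with means of 0.776 RPKM in sorbose heads and 0.976 RPKM in sucrose heads, near the level of odor heads 4 and 5.

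Next by SD came a mixture of immune effectors, metabolic genes and noncoding RNAs. Mtk, which encodes the antifungal peptide Metchnikowin, had an SD of 3.40, lncRNA:CR32368 an SD of 3.15 and Srg3, a gene named for its regulation by STING, an SD of 3.11. The alpha-glucosidase gene tobi, a fat body target of insulin signalling, followed with 3.11. DptA (Diptericin A), Dro (Drosocin) and AttC (Attacin-C), all antibacterial peptides, had SDs of 2.97, 2.94 and 2.41. CG5172, asRNA:CR45485 and CG16756 closed the 12 with SDs of 2.39, 2.36 and 2.34, and 1 of the 12 carried no symbol in the annotation. These genes did not share 1 order of heads: asRNA:CR45485 and CG16756 were lowest in heads 1 and 6 and highest in head 4, with 0.921, 10.3, 4.39, 46.7, 44.8 and 0.671 RPKM for CG16756 in heads 1 to 6, whereas lncRNA:CR32368 was at 364, 99.6, 3.41, 3.14, 2.26 and 1.71 RPKM, high in heads 1 and 2 alone.

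**Figure D2:**
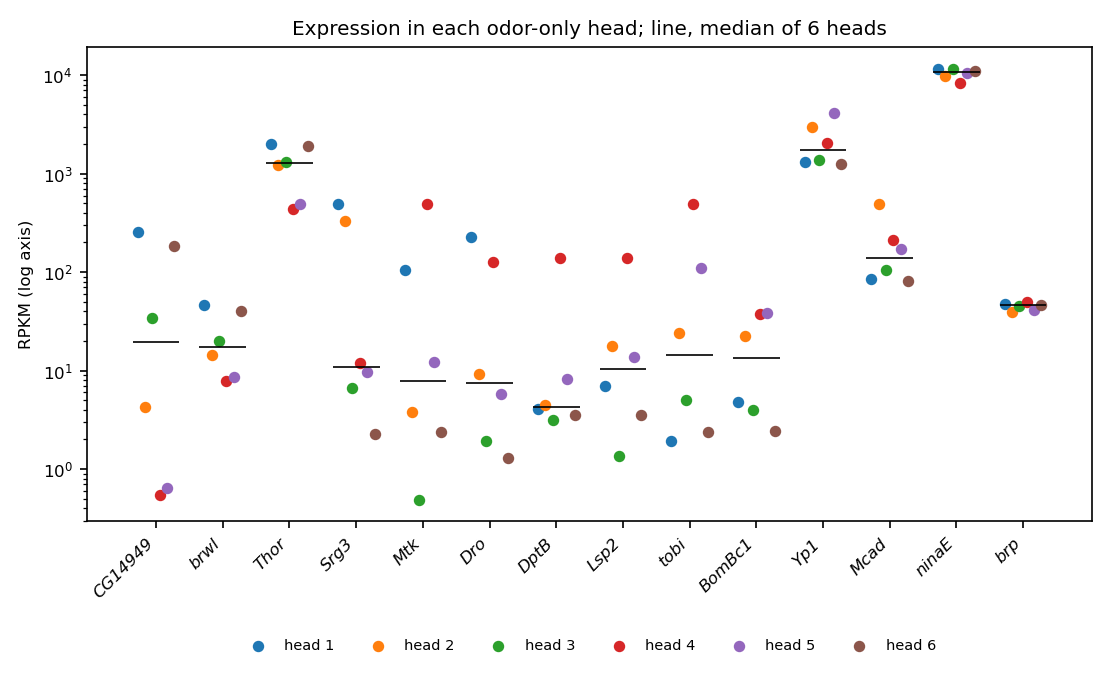
RPKM (vertical log axis) of 14 genes in each of the 6 odor heads, 1 color per head, with the median of the 6 heads as a line. CG14949, brwl and Thor are highest in heads 1 and 6, Srg3 in heads 1 and 2, DptB, Lsp2 and tobi in head 4, and the eye and synapse genes ninaE and brp lie close together.

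At the other end, the 6 genes with the smallest SD among those with a mean of at least 10 RPKM are described here. For 5 of them the SD was below the SD that counting alone gives, for instance 0.012 against 0.053 for CG11523 and 0.014 against 0.029 for Nct, so their order is within counting noise. CG11523 had 12.3, 12.3, 12.1, 12.4, 12.1 and 12.2 RPKM in heads 1 to 6, an SD of 0.012. Nct, which encodes Nicastrin of the gamma-secretase complex, had an SD of 0.014. Galphas, a stimulatory G protein subunit, had 49.5, 49.9, 49.6, 50.9, 50.1 and 50.2 RPKM and an SD of 0.014. Ide (insulin degrading enzyme), the kinase gene trc and Pop2, a deadenylase subunit, had SDs of 0.015, 0.017 and 0.018. The lowest SD among the 6 was 0.033 in sorbose heads and 0.036 in sucrose heads, both for Pop2, but the 6 were picked for their low SD in odor heads.

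Gene lists ranked by median SD placed immune effectors first and neuronal genes last. Of the 35 lists with a member above the level filter, 31 had a median SD above that of all genes and 4 below it. Ranked among genes of the same level, where 50 is the middle, the median percentile was 45.5 for cytoplasmic ribosomal proteins, 47.6 for mitochondrially encoded genes and 49.8 for clock genes, which are among the 31. The list medians are descriptions, since the lists were put together with results on these heads already known. A list of STING-regulated antiviral genes and a list of ribosomal RNA genes and pseudogenes were added after the values had been seen. Entries that were not matched by symbol are absent from the lists, among them Drs, InR, FASN1, para, VAChT and wupA.

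**Figure D3:**
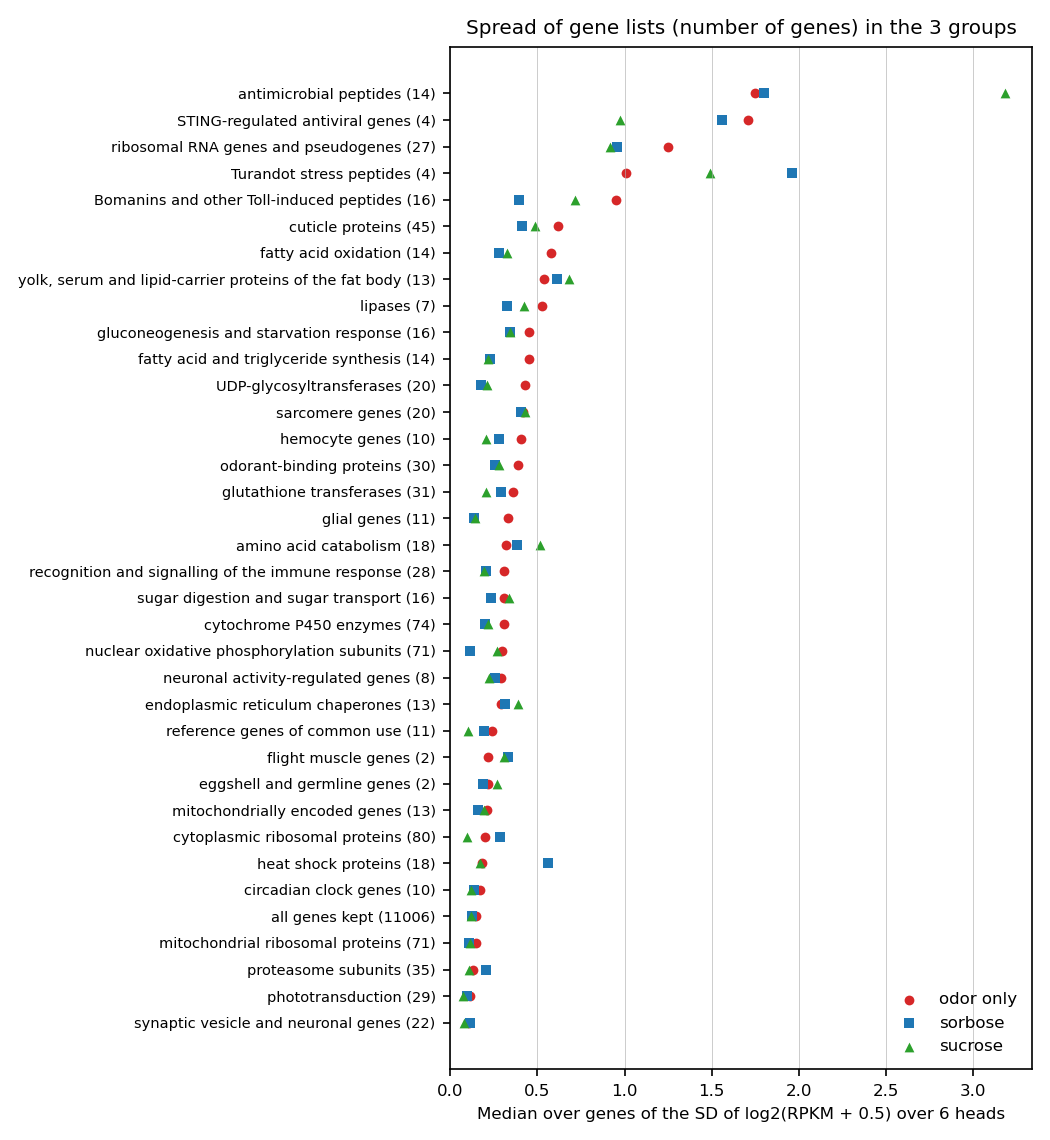
Median over the genes of each list of the SD of log2(RPKM + 0.5) over 6 heads (horizontal axis), for odor-only, sorbose and sucrose heads, with the number of genes in parentheses. In odor heads antimicrobial peptides stand at 1.75 and synaptic genes at 0.11, against 0.15 for all genes.

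Antimicrobial peptides varied most as a list, but not as a unit. All 14 members that passed the level filter, of 17 matched, were in the top 10% by SD, and the median SD was 1.75 in odor heads, 1.80 in sorbose heads and 3.181 in sucrose heads. Because low genes enter through the heads where they are high, the 14 are not the whole list. Drs (Drosomycin) was not matched by symbol and is absent as well. DptB, Diptericin B, had 4.04, 4.48, 3.15, 139, 8.20 and 3.52 RPKM in heads 1 to 6, so that head 4 alone was high, and an SD of 2.02. Mtk had 106, 3.75, 0.489, 488, 12.1 and 2.37 RPKM and Dro 227, 9.13, 1.93, 128, 5.85 and 1.305 RPKM, both high in heads 4 and 1. AttA, an Attacin, had 429.8, 65.5, 24.4, 35.6, 39.7 and 12.2 RPKM and was highest in head 1, where Def (Defensin) was near its lowest; Def had 0.816, 0.940, 0.694, 3.27, 1.18 and 36.3 RPKM and stood out in head 6 alone. The Drosomycin-like gene Drsl4, at 3.71, 19.8, 20.5, 40.6, 75.3 and 3.09 RPKM, was instead highest in head 5 and lowest in heads 1 and 6. Thus 7 peptides peaked in head 4, 4 in head 1, 2 in head 5 and 1 in head 6. The mean correlation between pairs of peptides was 0.29 over the 6 odor heads, against 0.78 in sorbose heads and 0.65 in sucrose heads, a description over 6 points a group. With any 1 odor head left out, the median SD of the list was at least 1.27, but the SD of DptB was 0.49 without head 4. Reads of AttA and AttB, and of CecA1 and CecA2, could be divided between near-identical copies. CecC, a Cecropin, was low, at 2.44, 1.24, 1.77, 2.83, 0.850 and 0.838 RPKM, with an SD of 0.56 in odor heads, 0.86 in sorbose heads and 3.25 in sucrose heads.

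Bomanins, short secreted peptides induced through Toll, varied together. All 16 matched genes of the list passed the filter, 12 were in the top 10%, and the median SD was 0.95 in odor heads, 0.39 in sorbose heads and 0.72 in sucrose heads. BomS2 had 270.4, 506, 279, 657, 1744 and 396 RPKM in heads 1 to 6. Dso2, one of the Daisho antifungal peptides, had 47.9, 138, 67.7, 321, 823 and 55.4 RPKM and BomBc1 had 4.80, 22.2, 4.01, 37.6, 38.2 and 2.41 RPKM. Head 5 was highest for 15 of the 16 genes, head 4 followed for these 3, and heads 1, 3 and 6 were low. The mean pairwise correlation was 0.68. The mean deviation of the list from its 6-head mean was 1.477 in head 5 and 0.52 in head 4 on the log2 scale, while the antimicrobial peptides stood at -0.026 in head 5 and 1.89 in head 4. The highest head thus differed between these lists of secreted immune peptides, neither of which holds Drs. Without head 5 the median SD of the Bomanin list was 0.55. The 16 genes include close paralogs among which reads may be split.

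Recognition and signalling genes of the immune response varied far less than the peptides, with a median SD of 0.31 over 28 genes, 10 of them in the top 10%. The 2 most variable were PGRP-SB1, a peptidoglycan recognition protein, at 3.52, 39.5, 3.20, 71.0, 26.9 and 1.21 RPKM, and GNBP-like3 at 9.38, 20.03, 9.73, 36.5, 94.8 and 8.90 RPKM. PGRP-SB1 was highest in head 4 like DptB, and GNBP-like3 was highest in head 5 like the Bomanins. Of 8 matched Turandot stress peptides 4 passed the filter, all in the top 10%, and TotA had 5.56, 10.4, 2.19, 13.8, 25.9 and 2.46 RPKM, again highest in head 5. The Turandot list had median SDs of 1.01 in odor heads, 1.96 in sorbose heads and 1.49 in sucrose heads.

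Genes of the STING antiviral response were high in heads 1 and 2. The list was put together after these values had been seen, so what its members share describes how it was chosen. Srg3 had 496, 332, 6.70, 12.0, 9.61 and 2.26 RPKM in heads 1 to 6 and Vago, a secreted antiviral peptide, had 191, 106, 10.8, 13.3, 15.3 and 13.8 RPKM. Sting, the cyclic dinucleotide sensor that drives Srg genes, had 88.8, 31.3, 7.88, 7.62, 8.91 and 9.25 RPKM. In each of the 3, heads 1 and 2 lay above the other 4 without overlap. The 4 kept genes of 6 matched had a mean pairwise correlation of 0.96, and the median SD was 1.71 in odor heads, 1.56 in sorbose heads and 0.97 in sucrose heads. The mean deviation of the list was 3.01 in head 1, 1.92 in head 2 and -1.02 in head 4. lncRNA:CR32368, described above, was high in these heads as well.

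Genes of yolk, serum and lipid-carrier proteins of the fat body, like the Bomanins, were mostly highest in head 5. Of 18 matched genes 13 passed the filter and 9 of these were in the top 10%, with a median SD of 0.54 in odor heads, 0.61 in sorbose heads and 0.68 in sucrose heads and a mean pairwise correlation of 0.60. Lsp2 (Larval serum protein 2) had 7.04, 17.6, 1.35, 138, 13.7 and 3.51 RPKM in heads 1 to 6. The gene fit, a female-biased secreted satiety factor of the fat body, had 0.774, 5.65, 0.713, 11.5, 19.0 and 0.658 RPKM. Yp1 (Yolk protein 1) had 1304, 2980, 1386, 2064, 4107 and 1259 RPKM. Lsp2 was highest in head 4, fit and Yp1 in head 5, and heads 1, 3 and 6 were the 3 lowest for both of these. Tsf1, the iron carrier transferrin, was highest in heads 5 and 4 as fit was, with 116, 236, 195, 499, 969 and 149 RPKM. Head 5 was highest for 8 of the 13 genes. NLaz, an apolipoprotein D homolog, was an exception at 25.6 to 31.5 RPKM over the 6 heads, an SD of 0.11.

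Starvation and insulin response genes split into opposite directions across heads. Thor, the 4E-BP translation inhibitor that FOXO induces, had 2006, 1239, 1323, 441, 489 and 1917 RPKM in heads 1 to 6. Heads 1 and 6 held the most and heads 4 and 5 the least, and the SD was 0.96 in odor heads, 0.12 in sorbose heads and 0.32 in sucrose heads. The lipase gene bmm (brummer), which mobilises stored triglyceride, had 351, 282, 255, 133, 205 and 344 RPKM, and foxo itself had 52.9, 32.9, 33.8, 22.8, 26.6 and 47.6 RPKM, both again highest in head 1 and lowest in head 4. The insulin-binding protein gene ImpL2 had 133, 81.2, 88.2, 50.9, 43.2 and 117 RPKM and the TORC1-repressed factor REPTOR had 30.4, 21.2, 24.5, 15.9, 15.7 and 32.4 RPKM. In contrast tobi had 1.95, 24.1, 4.98, 498, 111 and 2.38 RPKM, highest in head 4 and lowest in head 1, and the adipokinetic hormone receptor gene AkhR had 7.10, 10.6, 6.03, 12.3, 14.9 and 5.72 RPKM. Pepck1, the gluconeogenic phosphoenolpyruvate carboxykinase, had 1384, 2242, 1289.7, 1252, 992 and 1971 RPKM and matched neither order, with head 2 highest and head 5 lowest. Of the 16 genes in the list, 7 had a correlation of -0.8 or below and 2 of 0.8 or above with the first axis described next, and their mean pairwise correlation was 0.12.

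A single direction of variation carried most of the spread between odor heads. The first axis of a singular value decomposition of the gene-centered values held 61.4% of the variance, against 12.8% and 11.6% for the next pair. The heads were ordered along it as head 1 (-34.9), head 6 (-31.2), head 3 (-7.74), head 2 (14.6), head 5 (25.8) and head 4 (33.4), in log2 units summed over genes, with the sign set by head 4. Of 11006 genes, 2022 had a correlation of 0.8 or above with these scores and 1985 of -0.8 or below, together 36.4%. Among the 1101 genes of the top 10%, 543 lay at 0.8 or above and 151 at -0.8 or below, together 63.03%. These counts describe how the axis was made and are not tests. With any 1 odor head left out, the first axis held 59.0% to 68.4% of the variance, and its gene weights correlated at 0.96 or above with those of all 6 heads across genes.

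Placed on this axis, which was built without them, the sorbose heads lay between 19.4 and 25.1 and the sucrose heads between 10.9 and 40.5. All 12 trained heads were thus on the side of the axis that held odor heads 2, 5 and 4, and none reached the scores of heads 1, 6 and 3. The first axes of the trained groups themselves held 46.6% of the variance in sorbose heads and 49.3% in sucrose heads, and their gene weights had absolute correlations across genes of 0.050 and 0.44 with those of the odor axis.

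**Figure D4:**
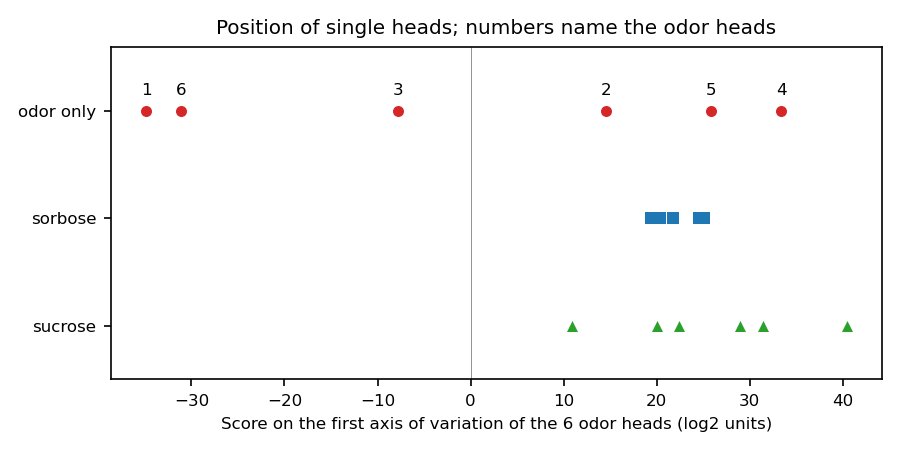
Score of each of 18 heads on the first axis of variation of the 6 odor heads (horizontal axis, log2 units), 1 row per group, odor heads numbered. Odor heads span -34.9 to 33.4, sorbose heads 19.4 to 25.1 and sucrose heads 10.9 to 40.5.

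Genes at the positive end of the axis included Hml (Hemolectin, r = 0.99), a hemocyte gene at 4.63, 11.7, 8.20, 16.8, 15.3 and 4.04 RPKM in heads 1 to 6, and Gapdh2 (r = 0.99), a glycolytic enzyme often used as a reference, at 240.2, 545, 431, 673, 604 and 269.6 RPKM. Obp99a and Obp99d, odorant-binding proteins, had r of 0.95 and 0.96; Obp99a was at 0.225, 3.61, 0.334, 17.3, 7.21 and 0.212 RPKM. The muscle LIM protein gene Mlp60A had r of 0.95. At the negative end lay CG14949 (r = -0.996), brwl (r = -0.993), Thor (r = -0.93) and Xbp1, the transcription factor of the unfolded protein response (r = -0.92). Xbp1 came from the list of endoplasmic reticulum chaperones, where 2 of 13 genes had r of -0.8 or below and 4 had r of 0.8 or above. CG13868, taken from a list of activity-regulated neuronal genes, was also there, with 949.8, 509, 428, 197, 245 and 889.7 RPKM. The circadian clock gene vri had r of -0.91, at 32.7, 25.2, 24.9, 17.3, 18.2 and 27.5 RPKM, while tim, another clock gene, had r of -0.041 at 45.01 to 57.1 RPKM. Of the 10 clock genes 4 had r of -0.8 or below and 1 of 0.8 or above.

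Cuticle and muscle genes shared their high heads. Of 126 matched cuticle protein genes 45 passed the filter and 25 were in the top 10%, with a median SD of 0.62 in odor heads, 0.41 in sorbose heads and 0.48 in sucrose heads. Cpr92F had 0.184, 5.37, 1.16, 10.9, 1.58 and 0.314 RPKM in heads 1 to 6 and Ccp84Ab had 2.20, 16.6, 5.66, 21.6, 6.11 and 1.16 RPKM, both chitin-binding cuticle proteins highest in heads 4 and 2. Head 4 was highest for 23 of the 45 and head 1 lowest for 28, and without head 4 the median SD was 0.41. As with the antimicrobial peptides, the 81 members left out were low, and with no filter on low values the median SD was 0.14, against 0.12 over all 17006 genes of that setting. Cpr72Ec went the other way, with 83.8, 45.7, 75.2, 47.0, 63.3 and 77.5 RPKM, lowest in heads 2 and 4. Among 20 sarcomere genes, head 4 was highest for 13 and head 1 lowest for 11. Mlc1, a myosin light chain, had 151, 472, 229.8, 526, 268 and 169 RPKM, and the list had median SDs of 0.42 in odor heads, 0.40 in sorbose heads and 0.43 in sucrose heads. The mean deviation in heads 1 to 6 was -0.59, 0.35, -0.075, 0.72, 0.047, -0.46 for the cuticle list and -0.42, 0.42, -0.04, 0.48, -0.056, -0.39 for the sarcomere list. Whether tissue carried with the head had a part in the cuticle or sarcomere values was not tested.

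Lipid and mitochondrial genes were set apart by head 2. All 14 genes of fatty acid oxidation passed the filter and 8 were in the top 10%, with a median SD of 0.58 in odor heads, 0.28 in sorbose heads and 0.32 in sucrose heads and a mean pairwise correlation of 0.85. Mcad, medium-chain acyl-CoA dehydrogenase, had 85.9, 491, 106, 212, 173 and 80.5 RPKM in heads 1 to 6, and yip2, a ketoacyl-CoA thiolase, had 69.8, 464, 83.6, 203, 147 and 65.7 RPKM. Head 2 was highest for 13 of the 14 genes and head 6 lowest for 12, and without head 2 the median SD of the list was 0.38. The same pair of heads bounded oxidative phosphorylation, where head 2 was highest for 65 and head 6 lowest for 61 of 71 nuclear subunits, at smaller SDs: 0.30 in odor heads, 0.11 in sorbose heads and 0.27 in sucrose heads. UQCR-11, a complex III subunit and the second most variable of the list, had 40.6, 76.7, 48.2, 82.4, 66.7 and 40.04 RPKM and was highest in head 4 instead. Mitochondrially encoded genes were highest in head 2 for 9 of 13. Both of these lists hold short genes, with median exonic lengths of 871 and 789 bases, and head 2 had the largest median deviation of short over long genes, 0.14. After removal of the length trend, head 2 was highest for 13 of the 14 fatty acid oxidation genes, 62 of the 71 nuclear subunits and 9 of the 13 mitochondrially encoded genes. The amylase genes Amy-d, at 5.47, 80.0, 7.06, 20.3, 19.5 and 3.91 RPKM, and Amy-p, at 3.75, 53.5, 4.24, 11.2, 11.5 and 2.90 RPKM, were likewise highest in head 2; they are near-identical copies that may share reads.

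Synthesis of fatty acids and triglycerides showed no common order. SREBP, the sterol-response factor, had 193, 115.2, 132, 80.6, 102 and 177 RPKM in heads 1 to 6 and was highest in heads 1 and 6, as was Lpin (Lipin) at 215, 145, 154, 79.1, 100.2 and 195 RPKM. The acetyl-CoA carboxylase gene ACC had 107, 162, 158, 164, 228 and 154 RPKM and was lowest in head 1. The acyl-CoA synthetase gene bgm (bubblegum) had 15.5, 113, 63.6, 84.05, 105 and 54.3 RPKM, with head 1 apart on the low side, and an SD of 1.04 that was 0.45 without head 1. Over the 14 kept genes the mean pairwise correlation was 0.13 and 4 were in the top 10%. Among lipases, mag (magro), a lipase known from the gut, had 17.4, 21.0, 3.74, 0.430, 0.512 and 15.3 RPKM, below 1 RPKM in heads 4 and 5. Its means in the trained groups were 0.0595 RPKM in sorbose heads and 0.0926 RPKM in sucrose heads, so it passed the level filter through the odor heads alone.

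**Figure D5:**
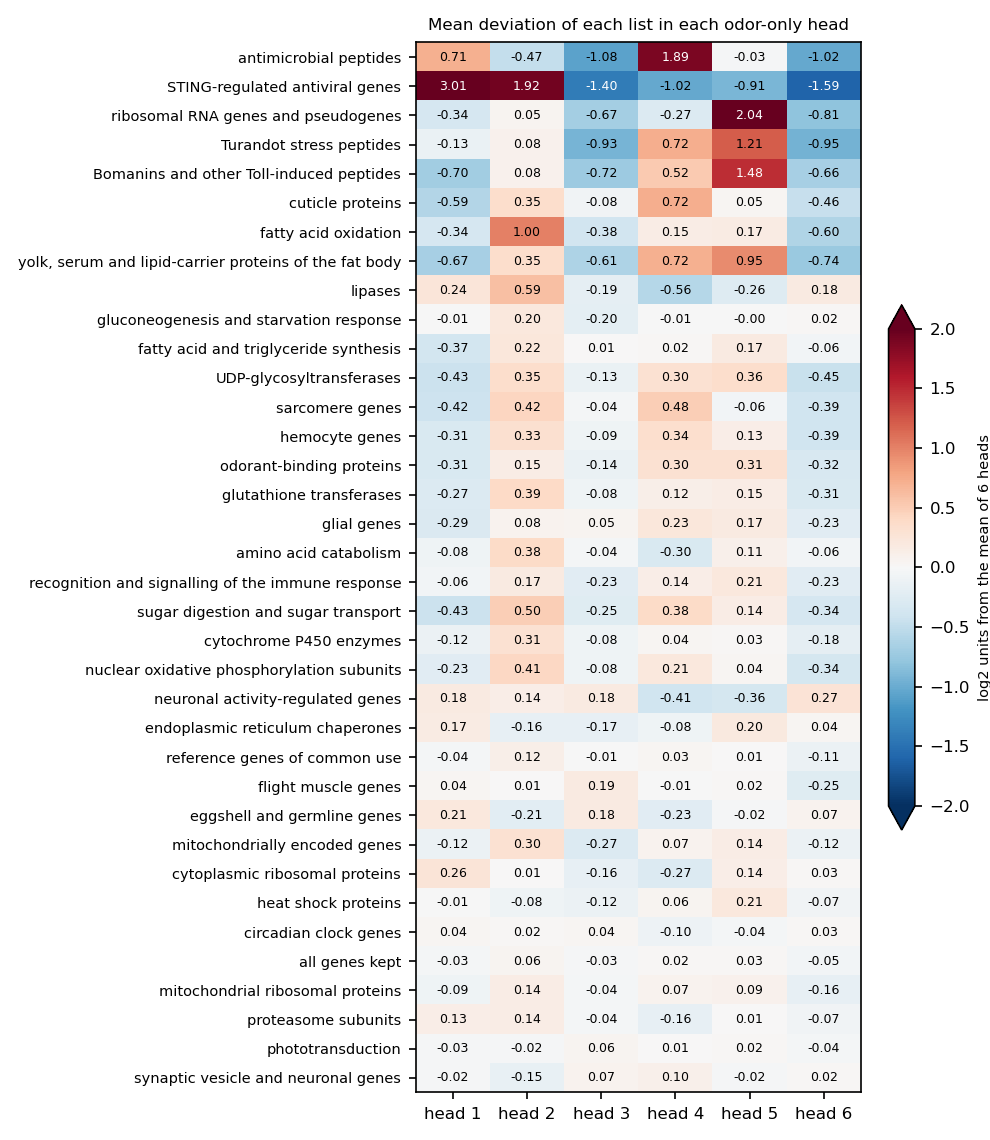
Mean deviation, in log2 units, of the genes of each list from their 6-head mean in each odor head (columns), lists ordered from the largest to the smallest median SD (rows), red above and blue below the mean. The STING-regulated list reaches 3.01 in head 1, Bomanins 1.477 in head 5, antimicrobial peptides 1.89 in head 4 and fatty acid oxidation 1.00 in head 2, while the phototransduction scores stay between -0.042 and 0.059.

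Neuronal and photoreceptor genes had the lowest list medians on the deposited scale, but not after quantile normalization, where the medians were 0.16 for synaptic and neuronal genes and 0.17 for phototransduction, against 0.16 over all genes. The median SD of 22 synaptic and neuronal genes was 0.11 in odor heads, 0.11 in sorbose heads and 0.079 in sucrose heads, and none was in the top 10%. The active zone gene brp (bruchpilot) had 47.2, 39.5, 45.6, 49.4, 40.9 and 46.8 RPKM in heads 1 to 6, and nSyb, the neuronal synaptobrevin, had 242 to 271 RPKM, an SD of 0.061. Even so these genes varied together, with a mean pairwise correlation of 0.63, and head 2 was lowest for 18 of the 22. These are long genes, with a median exonic length of 5783 bases against 1918 over all genes, and head 2 also had the lowest median deviation of the longest 10% of genes, -0.093. After removal of the per-head length trend the mean pairwise correlation was 0.38 and head 2 was lowest for 10 of the 22. Of 29 phototransduction genes 9 were in the bottom 10% by SD and 1 was in the top 10%; the median SD was 0.11 in odor heads, 0.10 in sorbose heads and 0.07 in sucrose heads. The scaffold gene inaD had 173 to 183 RPKM, an SD of 0.029. The Rh1 opsin gene ninaE was the most abundant of the list, at 11627, 9784, 11689, 8271, 10503 and 11130.2 RPKM, an SD of 0.19. The exception was ninaD, a scavenger receptor for carotenoid uptake, at 0.498, 2.69, 0.888, 3.55, 1.80 and 0.536 RPKM, together with ninaB, the carotenoid oxygenase that makes retinal, at 22.4, 30.4, 30.4, 36.8, 37.2 and 25.5 RPKM; both were lowest in heads 1 and 6. Glial genes as a list had a median SD of 0.33, and 0.20 without head 1, led by wrapper, a midline glia immunoglobulin protein, at 2.90, 5.49, 7.56, 11.7, 11.2 and 2.17 RPKM.

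Ribosomal and proteasome genes varied in step but little. The 80 kept cytoplasmic ribosomal protein genes had a mean pairwise correlation of 0.92 and a median SD of 0.20 in odor heads, 0.29 in sorbose heads and 0.095 in sucrose heads. RpLP1 had 1249, 941, 845, 721, 1124 and 1059 RPKM in heads 1 to 6. Head 1 was highest for 67 and head 4 lowest for 74 of the 80 genes. Proteasome subunits, 35 genes, had a median SD of 0.13 in odor heads, 0.20 in sorbose heads and 0.11 in sucrose heads, with head 4 lowest for 25. Mitochondrial ribosomal proteins had a median SD of 0.15 and were instead lowest in head 6 for 42 of 71. Reference genes were not uniformly steady: Gapdh2 had an SD of 0.62, RpL32 of 0.24, 14-3-3zeta of 0.072 and Tbp of 0.067. Of 18 heat shock genes 2 were in the top 10%, Hsp22 and Hsp23, both small heat shock proteins, with Hsp23 at 6.40, 0.174, 0.132, 15.03, 14.7 and 5.74 RPKM with heads 2 and 3 near 0; the Hsp70 copies Hsp70Aa, Hsp70Ab, Hsp70Ba, Hsp70Bb, Hsp70Bbb and Hsp70Bc, whose reads may be split, had SDs no higher than 0.11 in odor heads, against at least 1.55 in sorbose heads.

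Residual ribosomal RNA separated head 5. Although libraries were made from polyadenylated RNA, 27 ribosomal RNA genes and pseudogenes passed the filter, and head 5 was highest for 26 of them. 28SrRNA:CR45837 had 13.1, 24.1, 7.85, 14.1, 181 and 7.34 RPKM in heads 1 to 6. Head 5 was also the highest head for Bomanins and most fat body proteins; the part of the ribosomal RNA in those results was not tested. Without head 5 the median SD of the ribosomal RNA list was 0.37, against 1.25 with it. Short genes also stood higher in some heads: the median deviation of the shortest 10% of genes minus that of the longest 10% was -0.094, 0.14, -0.12, -0.0080, 0.13 and -0.080 in heads 1 to 6. Removing that trend left the first axis at 61.5% of the variance, with scores correlated at 0.9998 with the original ones.

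Drug-metabolising and secreted protein families lay between these extremes. Cytochrome P450 genes had a median SD of 0.31 with 23 of 74 in the top 10%, glutathione transferases of 0.36 with 11 of 31, UDP-glycosyltransferases of 0.43 with 8 of 20 and odorant-binding proteins of 0.39 with 12 of 30. Cyp304a1 had 17.6, 3.39, 0.704, 0.218, 0.299 and 0.498 RPKM in heads 1 to 6, high in head 1, and Cyp4e3 had 5.82, 85.7, 8.06, 22.3, 10.6 and 4.20 RPKM, high in head 2. GstE4, a glutathione transferase, had 3.57, 0.305, 0.139, 0.214, 0.306 and 4.03 RPKM, with heads 1 and 6 above the other 4, whereas its neighbor in the family GstE3 had 12.6, 60.04, 26.1, 42.8, 36.3 and 12.0 RPKM with those same heads lowest. Hemocyte genes had a median SD of 0.41 in odor heads, 0.28 in sorbose heads and 0.20 in sucrose heads; among them the collagen gene Col4a1 had 28.3, 50.7, 33.6, 54.6, 34.6 and 20.3 RPKM and the scavenger receptor crq 55.6 to 69.8 RPKM. Amino acid catabolism had a median SD of 0.32 over 18 genes, where Gnmt, glycine N-methyltransferase, had 9.67, 44.7, 12.8, 4.54, 36.4 and 8.19 RPKM and CG8665 had 1.47, 0.974, 1.54, 1.97, 18.2 and 0.772 RPKM, with head 5 alone high and an SD of 0.39 without it.

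Genes that varied in odor heads tended to vary in the trained groups too. Of the 1101 genes of the top 10%, 617 (56.0%) were in the top 10% by SD in sorbose heads and 651 (59.1%) in sucrose heads, and 481 were so in all 3 groups. Across genes, which are not independent replicates, the SDs had a Spearman correlation of 0.61 with sorbose and 0.65 with sucrose. The level of spread was nevertheless higher in odor heads for most genes, for 6970 (63.3%) against sorbose and 7294 (66.3%) against sucrose, with median SDs of 0.15 in odor heads, 0.12 in sorbose heads and 0.12 in sucrose heads.

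Whether odor heads lay farther from each other was tested with 1 value per head, the median over genes of its absolute distance from the mean of the other 5 heads of its group. The departure averaged 0.131 ± 0.0224 in odor heads and 0.1003 ± 0.0281 in sorbose heads (SD, n = 6 each), a difference of 0.0310 (two-sided exact permutation test, p = 0.0693, adjusted p = 0.0693). Against sucrose heads, at 0.1002 ± 0.0242 (n = 6), the difference was 0.0311 (exact permutation p = 0.0433, adjusted p = 0.0693 over both comparisons). The smallest p this design allows is 0.00216. Each value was measured against the other heads of its own group, so the 6 values of a group are not independent. The permutation p-values are therefore approximate. The departure of single heads ranged from 0.0908 in head 3 to 0.155 in head 1 among odor heads, 0.0702 to 0.149 among sorbose heads and 0.0765 to 0.138 among sucrose heads, so the groups overlapped. Leaving out 1 head moved the adjusted p of this exact test both ways. Without odor head 3 it was 0.0195 in both comparisons, and without any other odor head 0.0823 to 0.115. Against sorbose, the exact test gave an adjusted p of 0.0216 without sorbose head 2 and 0.106 to 0.190 without any other sorbose head. Against sucrose, it gave 0.0260 without sucrose head 3 and 0.0693 to 0.126 without any other sucrose head. With no filter on low values the differences were 0.0153 against sorbose and 0.0129 against sucrose (exact permutation test, adjusted p = 0.154 for both).

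Gene by gene, absolute deviations from the group median were compared with limma over all 18 heads. Of 11006 genes, 28 (0.254%) varied more in odor than in sorbose heads and 20 (0.182%) more than in sucrose heads at a Benjamini-Hochberg adjusted p under 0.05, 15 of them in both comparisons. None varied less in this limma test; at an unadjusted p under 0.05 there were 1468 higher and 125 lower against sorbose, and 1324 higher and 159 lower against sucrose. None of the antimicrobial peptides, Bomanins, fat body proteins or cuticle genes was called. Among all listed genes wrapper, against sucrose, was called. The lipase gene mag was called against sorbose, but its mean of 0.0595 RPKM there lies under the pseudocount, where the log2 scale leaves almost no room for spread, so that call says nothing about its spread in sorbose heads. The same held for 3 of the 28 calls against sorbose (mag among them) and 1 of the 20 against sucrose, whose mean in the trained group was under 0.5 RPKM. These calls depended on single heads: without odor head 1, 4, 5 or 6 in turn there were 0, 1, 1 and 0 against sorbose and 3, 1, 1 and 0 against sucrose, without odor head 2 there were 118 and 69, and without any 1 sorbose head (against sorbose) or any 1 sucrose head (against sucrose) there were 0. A limma fit with only the groups compared also gave 0 in both comparisons, with 1209 and 1122 higher at an unadjusted p under 0.05.

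Leaving mag aside, the largest differences against sorbose among genes with a symbol were those of CG14949 and CG1494. The deviation of CG14949 was larger by 2.80 ± 0.63 (SE) in odor than in sorbose heads (limma adjusted p = 0.0437); its sorbose mean of 0.776 RPKM was itself close to the pseudocount. CG1494 had 19.2, 14.1, 6.41, 3.75, 2.51 and 16.8 RPKM in odor heads 1 to 6 and a mean of 1.304 RPKM in sorbose heads. Its difference was 0.89 ± 0.20 (limma adjusted p = 0.0437). Odor heads 1, 2 and 6 were high and heads 3, 4 and 5 closer to the trained mean.

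Against sucrose, the largest called differences among genes with a symbol were those of brwl, Ser7 and Ube4B. The gene brwl had 46.8, 14.5, 20.1, 7.92, 8.65 and 40.2 RPKM in odor heads 1 to 6 and means of 7.61 RPKM in sorbose heads and 6.55 RPKM in sucrose heads. Its deviation was larger by 0.79 ± 0.17 (SE; limma adjusted p = 0.0386). Ser7, a serine protease gene, had 10.2, 28.2, 17.0, 44.0, 47.4 and 12.5 RPKM, the opposite order of heads, and a difference of 0.71 ± 0.14 (limma adjusted p = 0.0152). Ube4B, a ubiquitin ligase gene, had 69.8, 29.1, 37.5, 17.4, 16.8 and 76.7 RPKM in odor heads, with means of 15.7 RPKM in sorbose heads and 15.03 RPKM in sucrose heads. Its SD was 0.93 in odor heads, 0.056 in sorbose heads and 0.055 in sucrose heads, and it differed from sucrose by 0.71 ± 0.13 (limma adjusted p = 0.0152).

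Over both comparisons 33 genes were called. Of the 33, 25 (75.8%) were highest in head 1 or 6, against 3970 of all 11006 genes (36.1%). Lowest in head 4 or 5 were 27 (81.8%), against 4210 of all genes (38.3%). Highest in head 4 or 5 were 6 (18.2%), against 3662 of all genes (33.3%). The calls were made on spread over these same heads, so the counts describe the called genes and are not tests. Of the 1101 genes of the top 10% by SD, head 1 was highest for 168, head 6 for 86, head 4 for 361 and head 5 for 262. Among the 33, the order of heads 2 and 3 differed from gene to gene. Head 3 was above head 2 in LpR1 and Ube4B, and head 2 above head 3 in trbl and CG1494. LpR1, a lipophorin receptor, had 58.4, 27.7, 39.5, 19.99, 20.8 and 55.1 RPKM, with means of 18.7 RPKM in sorbose heads and 18.1 RPKM in sucrose heads. The pseudokinase gene trbl (tribbles), an inhibitor of insulin signalling, had 20.3, 12.5, 10.4, 7.32, 7.75 and 19.9 RPKM, and Pcyt1, which makes the phosphatidylcholine precursor, had 148, 70.8, 85.5, 38.3, 44.0 and 152 RPKM. The eye pigment genes cd (cardinal) and bw (brown) went the other way, with 1.06, 1.46, 2.47, 3.20, 3.38 and 1.04 RPKM for cd and 3.30, 4.51, 7.03, 8.34, 9.27 and 3.85 RPKM for bw. In LpR1, Pcyt1 and Ube4B heads 4 and 5 lay near the means of the trained groups and heads 1 and 6 far above them.

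Co-variation was tested for 10 single genes taken from the classes, in 45 pairs over the 6 odor heads. The results hold for these genes and not for their lists. Cpr72Ec had r of -0.84 with the first axis. Of the 45 kept cuticle genes, 24 had r of 0.8 or above and 4 of -0.8 or below. CecC had the smallest SD of the 14 kept antimicrobial peptides, 0.56. No pair passed after adjustment by r or by rho. With 6 heads there are 720 pairings, too few for any 1 pair to pass alone after adjustment over 45 pairs. That no pair passed therefore cannot decide whether these genes varied together. At an unadjusted exact permutation p under 0.05 there were 8 pairs by r and 5 by rho, and the smallest such p found for r was 0.00278. TotA and fit had Pearson r = 0.95 (exact permutation p = 0.00278, adjusted p = 0.125) and Spearman rho = 0.94 (exact permutation p = 0.0167, adjusted p = 0.300). Without the 2 heads farthest from the median of TotA, r was 0.92. BomS2 and fit had Pearson r = 0.90 (exact permutation p = 0.00833, adjusted p = 0.156) and Spearman rho = 0.77 (exact permutation p = 0.103, adjusted p = 0.330), with r of 0.91 without the 2 farthest heads. DptB and BomS2, an Imd-type and a Toll-type peptide, had Pearson r = 0.38 (exact permutation p = 0.417, adjusted p = 0.642) and Spearman rho = 0.77 (exact permutation p = 0.103, adjusted p = 0.330). For DptB the value of r rested on head 4: with BomS2 it was 0.95 without head 4 and 0.29 to 0.76 without any other 1 head. DptB and ninaE had Pearson r = -0.90 (exact permutation p = 0.0375, adjusted p = 0.211) and Spearman rho = -0.89 (exact permutation p = 0.0333, adjusted p = 0.300), and without head 4 r was -0.52.

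Heads that stood alone in single genes were counted with the Dixon criterion, the gap of the extreme head to its neighbor over the range. For 540 genes (4.91%) 1 head exceeded the 95% critical ratio for 6 values, near the 1 in 20 that chance gives, and 79 of these were in the top 10%. Head 2 stood apart for 244 genes, head 5 for 99, head 1 for 86, head 4 for 70, head 6 for 22 and head 3 for 19. Head 2 was low for 147 of its 244 genes and head 5 high for 80 of its 99. By chromosome, the share of genes in the top 10% was 11.6% on 2L, 10.3% on 2R, 9.27% on 3L, 9.35% on 3R, 8.61% on X and 1.94% on the small chromosome 4, where 2 of 103 genes belonged to it. By biotype it was 9.09% of 9615 protein-coding genes, 12.5% of 853 noncoding RNA genes and 14.8% of 122 pseudogenes.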

How the data were processed

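Single female heads were sequenced as non-stranded polyA libraries, and the deposited table holds RPKM per gene and head. Per the labels, the authors used CASAVA 1.8.2, TopHat2 2.0.13 and edgeR 3.18.1 on dm6, with Ensembl 84 gene models by the study's methods. Whole reads recovered from the RPKM steps gave the depths. Symbols came from Ensembl release 115, which annotated 17253 of 17559 IDs.

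RPKM was transformed as log2(RPKM + 0.5), after keeping genes with a mean of at least 0.5 RPKM over the odor heads; 222 kept genes had no symbol and are counted but not named. Spread was compared with limma 3.58.1 (R 4.3.3) on absolute deviations from the group median over all 18 heads, with Benjamini-Hochberg adjustment, and departures and correlations by exact permutation in Python 3.11.15 with numpy 2.4.6 and pandas 2.3.3. Tested on simulated data, the limma test recovered only a minority of genes given a strongly raised spread at 6 heads per group, so a gene that was not called may still differ in spread; centring on the group mean recovered more of them but also gave more false calls.

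The heads, gene lists and tests were chosen with earlier results of these data known. Named genes were the 12 with the largest and the 6 with the smallest SD (among genes with a mean of at least 10 RPKM), the 2 most variable members of each list, the 10 genes of the correlations, and the 3 largest called differences per comparison. Others named, such as AttA, Def, foxo, bmm, Ube4B, LpR1, trbl, Pcyt1, cd and bw, were chosen after their values were seen. Alternatives were the pseudocount, the level filter, scaling, centring, the samples in the fit, a replicate block and the omission of each head, with removal of a length trend and of overlapping genes added after seeing the data.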

Additional observations from a re-analysis of the deposited data

Results flagged for a closer look

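Of 128 groups of 6 values examined with the Dixon criterion, 8 had 1 odor head apart from the other 5. A rate of 1 in 20 would give 6.4. Many of these groups were genes named for a large SD in these same heads, so setting 8 against 6.4 is not a test. The ribosomal RNA list was put together after the values had been seen, and its members are not independent of each other. Head 5 was apart for ribosomal RNA, with a mean deviation of 2.04 on the log2 scale for the list, 181 RPKM of 28SrRNA:CR45837 and 93.3 RPKM of 28SrRNA-Psi:CR45855, and for CG8665 at 18.2 RPKM. Head 4 was apart on the high side for DptA at 181 RPKM and DptB at 139 RPKM, Diptericin genes that may share reads. On the low side, head 1 was apart for bgm at 15.5 RPKM and head 2 for the potassium channel gene Sh at 38.2 RPKM.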

How the results depend on the processing

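Counts of genes that varied more in odor heads depended on the setting. Against sorbose heads they were 4 with a pseudocount of 0.1, 96 with a minimum mean of 5 RPKM, 45 after quantile normalization, 45 with deviations divided by the trend of SD on level, 1 after removal of the length trend, 0 in a fit with only the groups compared, and 741 with deviations from the group mean (711 higher and 30 lower). Against sucrose heads they were 47 with a pseudocount of 1, 74 with a minimum mean of 5 RPKM, 7 after removal of the length trend, 0 in a fit with only the groups compared, and 658 with deviations from the group mean (616 higher and 42 lower). With no filter 24 genes were called against sorbose (20 higher and 4 lower) and 29 against sucrose (22 higher and 7 lower). Leaving out 1 head gave 0 to 118 against sorbose and 0 to 69 against sucrose. The cause of these shifts was not tested.

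With the replicate number as a block, 2 genes were called against sorbose and 5 against sucrose. Heads share only a number: correlations of deviations of same-numbered heads ran from -0.35 to 0.24, with 5 of 12 over 0.1.

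The difference in departure passed the exact permutation test with a minimum mean of 5 RPKM (0.0348 against sorbose, 0.0370 against sucrose) and after quantile normalization (0.0355 and 0.0361). Leaving out 1 head gave 0.0212 to 0.0439 against sorbose and 0.0243 to 0.0440 against sucrose. With no filter it was 0.0153 and 0.0129. Of 538 list medians under alternatives, 67 moved, and 7 lists changed sides of the all-gene median in some setting, phototransduction and synaptic genes under quantile normalization among them. With 6 heads per group, small differences in spread were not detectable.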
